A study of Homo sapiens with 8 samples.

Results

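Caveolae are flask-shaped pits of the plasma membrane, and the genes described here are those that build and shape them: the caveolins CAV1, CAV2 and CAV3, the cavins CAVIN1, CAVIN2 and CAVIN3, and the membrane-bending proteins EHD2 and PACSIN2. These 8 genes were listed by symbol, were matched to Ensembl identifiers, and were all present among the 58206 genes of the count table. Of the 8, 6 passed the filter on low counts that left 14289 genes for testing, and CAV3 and CAVIN3 did not. Expression was measured by mRNA sequencing in Alexander1, an established epithelial cell line from a human hepatocellular carcinoma.

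The study compared 4 libraries of the parental line, labelled wt (Axin1 -), with 4 libraries of a derivative labelled Axin1 +. Axin1 is a scaffold of the complex that degrades beta-catenin and so restrains canonical Wnt signalling. The parental line carries an Axin1 without the region bound by the kinase GSK3, so both groups share that allele and the tumour background, and its Wnt pathway is described as always active. The derivative received an Axin1 plasmid by VSVG retroviral transfer and was selected with hygromycin B as clones, and how many clones the libraries represent is not stated. The protocol text on transfer and selection is attached to all 8 samples, the parental ones included. Both groups grew in DMEM with fetal bovine serum. The labels do not say whether replicates were separate cultures, so p-values measure only the spread between these samples, which may be technical.

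Caveolin 1 inserts into the inner leaflet as a hairpin, binds cholesterol and forms oligomers with caveolin 2, whereas caveolin 3 takes its place in striated muscle. The cytosolic cavins then coat the caveolin-rich membrane: cavin 1 is needed for the coat to form, and cavins 2 and 3 join it and influence its shape. EHD2, an ATPase at the neck, holds caveolae at the surface, and the F-BAR protein PACSIN2 helps to curve the membrane. Caveolae are known for buffering membrane tension and as a route of endocytosis that does not use clathrin, and they are sparse in hepatocytes compared with endothelium, muscle or fat.

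The libraries held between 11232951 and 15263761 counts in the parental and between 12372436 and 26400782 in the derivative, so that 3 counts corresponded to 0.108 to 0.267 CPM (counts relative to the TMM-scaled total). AXIN1 mRNA itself was not higher in the libraries labelled Axin1 +, averaging 52.4 CPM ± 3.49 in parental against 45.4 CPM ± 5.13 in restored-labelled libraries (SD, n = 4 each; edgeR quasi-likelihood test, adjusted p = 0.267). The derivative is therefore called restored-labelled, and every direction below rests on the labels. On the first principal component restored-labelled replicate 1 lay at 22.2, against 48.7 to 56.8 for the other restored-labelled libraries and -46.7 to -42.6 for the parental ones. Parental replicate 1 stood apart on the second component, at 61.5 against -30.3 to 24.9 for the other 7 libraries, so values without these 2 libraries are given below. The line expressed all 8 hepatocellular markers listed (ALB, AFP, TTR, APOA1, APOB, KRT8, KRT18 and HNF4A), whose summed level ran from 8223 to 10418 CPM in the parental and from 8177 to 9076 CPM in the restored-labelled libraries. Within this sum, carried by APOB, KRT8 and KRT18, TTR rose from 3.63 to 12.6 CPM (log2 fold change 1.76, edgeR adjusted p = 0.0259). ALB averaged 152 and 435 CPM, with 13.8 to 681 CPM among the restored-labelled libraries, AFP 360 and 164 CPM and APOA1 578 and 297 CPM, and none of these passed (edgeR adjusted p of 0.211, 0.0538 and 0.0780).

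The caveolar genes split. CAV1, CAV2 and CAVIN2 fell in the restored-labelled libraries, CAVIN1 rose, and EHD2 and PACSIN2 did not pass the test. In such bulk libraries fewer expressing cells and less RNA per cell cannot be told apart. Thus 4 of the 6 tested members passed an adjusted p of 0.05 (edgeR quasi-likelihood test, Benjamini-Hochberg adjustment over all 14289 genes), 3 lower and 1 higher, where 19.2% of all tested genes passed. As the members were chosen with earlier results of these data known, this is a description and no test of the set. Of all tested genes, 8.77% were called lower and 10.4% higher, which is 1253 and 1485 genes, or 868 and 1724 with scaling by total counts alone. Only 3 members passed without parental replicate 2, restored-labelled replicate 3 or restored-labelled replicate 4, CAVIN2 being lost in each, where 10.5%, 10.7% and 9.71% of all tested genes passed. Without parental replicate 1 and restored-labelled replicate 1 all 6 tested members passed, 5 lower and 1 higher, but so did 32.3% of all tested genes. The median log2 fold change of the 6, restored-labelled over parental, was -1.11, beside 0.003 for all tested genes.

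**Figure D1:**
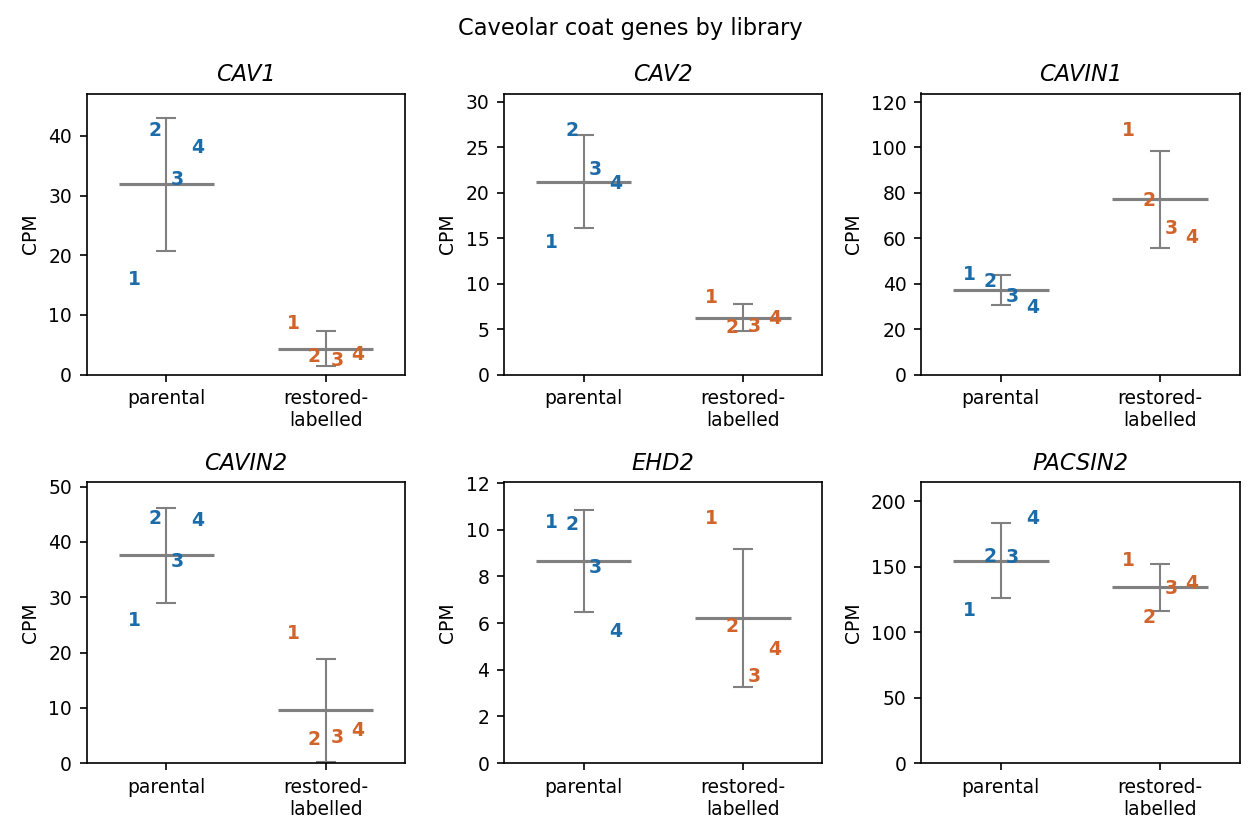
Level of each tested member in every library, in CPM on a linear axis from 0, by group. Digits are replicate numbers, grey bars the mean and SD of 4 libraries. The groups do not overlap for CAV1, CAV2, CAVIN1 and CAVIN2, nor for 23.9% of all tested genes. Restored-labelled replicate 1 is the highest of its group in all 6 panels, and in 31.0% of all tested genes.

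CAV1 (ENSG00000105974) encodes the caveolin that is required for caveolae outside striated muscle, and it lies on the plus strand of chromosome 7, from 116524785 to 116561184 in GRCh38. Parental replicates 1 to 4 held 15.9, 41.0, 32.7 and 38.0 CPM of it, whereas restored-labelled replicates 1 to 4 held 8.64, 2.97, 2.32 and 3.44 CPM. Parental replicate 1 was the lowest parental library and restored-labelled replicate 1 the highest of its group, yet the groups did not overlap, as was the case for 23.9% of all tested genes. With parental libraries averaging 31.9 CPM ± 11.2 and restored-labelled ones 4.34 CPM ± 2.91 (SD, n = 4 each), CAV1 fell 7.20-fold, with a 95% confidence interval of -3.78 to -1.92 on the log2 scale (edgeR adjusted p = 0.0014). With both replicates numbered 1 left out the log2 fold change went from -2.85 to -3.67 (edgeR adjusted p = 3.0e-08). No exon of another gene overlaps those of CAV1 in the annotation.

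CAV2 (ENSG00000105971), whose protein reaches the cell surface in complex with caveolin 1, lies beside CAV1 on the same strand of chromosome 7, from 116287380 to 116508541. The parental replicates 1 to 4 held 14.5, 26.9, 22.5 and 20.97 CPM, and the restored-labelled ones 8.43, 5.20, 5.27 and 6.13 CPM. Again the groups did not overlap, and again parental replicate 1 and restored-labelled replicate 1 lay nearest to the other group. The group means were 21.2 CPM ± 5.13 and 6.26 CPM ± 1.51 (SD, n = 4 each), and CAV2 fell by 1.75 on the log2 scale (SE 0.23, edgeR adjusted p = 0.0007). Its exons share 76 bases with a gene on the opposite strand that had at most 3 counts in any library.

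CAVIN2 (ENSG00000168497) encodes a phosphatidylserine-binding cavin (chromosome 2, 191834302 to 191847255, minus strand). It stood at 25.8, 44.2, 36.5 and 43.9 CPM in the parental replicates and at 23.5, 4.21, 4.73 and 5.86 CPM in the restored-labelled ones. Restored-labelled replicate 1 was thus close to parental replicate 1, while the other 3 restored-labelled libraries were several times lower than any parental one. The means were 37.6 CPM ± 8.62 and 9.56 CPM ± 9.29 (SD, n = 4 each), and the log2 fold change was -1.95 (SE 0.49, edgeR adjusted p = 0.0204). It was -2.92 without restored-labelled replicate 1 (edgeR adjusted p = 3.9e-05), and it no longer passed without parental replicate 2, restored-labelled replicate 3 or restored-labelled replicate 4 (edgeR adjusted p of 0.0557, 0.0600 and 0.0693). Its exons share 233 bases with CAVIN2-AS1 on the opposite strand, which was lower too, by a log2 fold change of -1.31 (edgeR adjusted p = 0.0130) at 0.578 to 2.14 CPM. The strand setting of the counting is not given in the sources used here, so reads within the shared bases cannot be told apart. These are 233 of the 3229 exon bases of CAVIN2, and CAVIN2-AS1 had 7 to 28 counts per library.

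CAVIN1 (ENSG00000177469, chromosome 17, 42402452 to 42423517, minus strand) encodes the cavin without which the coat does not assemble, and it moved in the opposite direction. The parental replicates held 44.1, 41.0, 34.3 and 29.4 CPM and the restored-labelled ones 108, 76.4, 64.6 and 60.3 CPM. Every restored-labelled library was above every parental one. With means of 37.2 CPM ± 6.60 and 77.2 CPM ± 21.4 (SD, n = 4 each), CAVIN1 rose 2.08-fold, with a 95% confidence interval of 0.62 to 1.49 on the log2 scale (edgeR adjusted p = 0.0053). Without restored-labelled replicate 1, which had the highest value, the log2 fold change was 0.85 in place of 1.05 (edgeR adjusted p = 0.0057).

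EHD2 (ENSG00000024422, chromosome 19, 47713343 to 47743134, plus strand) was the least abundant tested member per kilobase of exon in the parental libraries. It held 10.3, 10.2, 8.37 and 5.65 CPM in the parental replicates and 10.5, 5.86, 3.70 and 4.88 CPM in the restored-labelled ones. The groups overlapped, with the highest value of all in restored-labelled replicate 1. The means of 8.64 CPM ± 2.19 and 6.23 CPM ± 2.97 (SD, n = 4 each) gave a log2 fold change of -0.46 (95% confidence interval -1.18 to 0.25, edgeR adjusted p = 0.342). This value depended on single libraries. Without restored-labelled replicate 1 it was -0.85 and passed the threshold (edgeR adjusted p = 0.0463), where 3159 of 14380 tested genes passed. With any other single library left out it lay between -0.62 and -0.28 and did not pass.

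PACSIN2 (ENSG00000100266, chromosome 22, 42835412 to 43015145, minus strand), also known as syndapin 2, was the most abundant member per kilobase in both groups. Parental replicates held 117, 158, 157 and 187 CPM and restored-labelled ones 155, 111, 134 and 137 CPM, so that the groups overlapped. The log2 fold change was -0.20 (95% confidence interval -0.55 to 0.15, edgeR adjusted p = 0.399). It was -0.39 with both replicates numbered 1 left out and then passed the threshold (edgeR adjusted p = 0.0366). Its exons share 155 bases with ARFGAP3 on the same strand, whose log2 fold change was 0.26 (edgeR adjusted p = 0.211).

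The remaining members were near or below detection. CAV3 (ENSG00000182533, chromosome 3, 8733800 to 8841808, plus strand), the muscle caveolin, had 1 count in restored-labelled replicate 1 and 0 in the other 7 libraries. CAVIN3 (ENSG00000170955, chromosome 11, 6318946 to 6320647, minus strand) had 1 count in restored-labelled replicate 3 and 0 in the other 7. A count of 0 allows a level of up to 0.108 to 0.267 CPM, depending on the library and for counting error only, and no fold change is given for either gene.

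**Figure D2:**
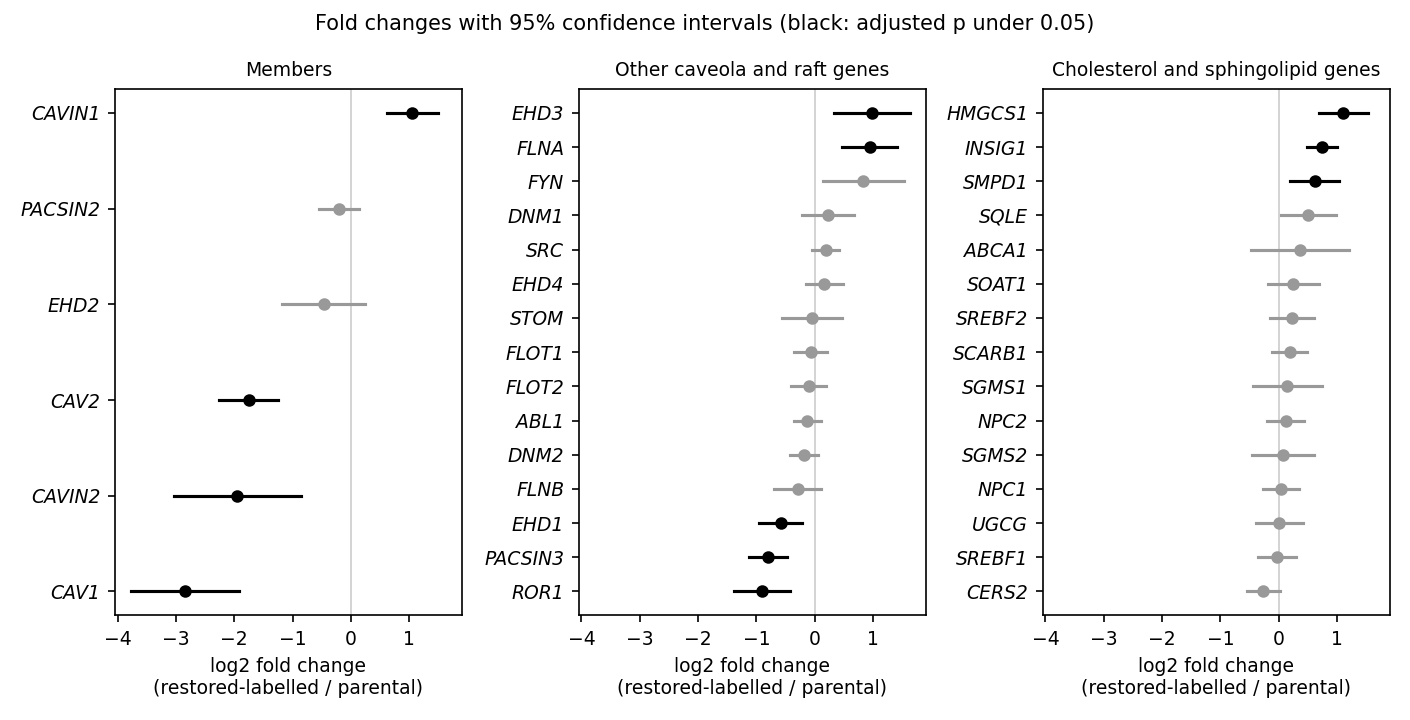
Log2 fold change, restored-labelled over parental, with its 95% confidence interval for the 6 tested members, 15 tested genes of caveola dynamics and other membrane rafts, and 15 of the 17 genes of cholesterol and sphingolipid metabolism. Black marks an adjusted p under 0.05. CAV1, CAVIN2 and CAV2 lie furthest to the left of all genes shown.

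CAV1 fell most, and the difference between its log2 CPM and that of each other tested member within a library is given as a description, with no test, because CAV1 was singled out for its fall. Relative to CAV2 it changed by -1.21 from the parental to the restored-labelled mean. Relative to CAVIN1, EHD2 and PACSIN2 it changed by -3.98, -2.41 and -2.75, and in each of these 4 pairs the within-library differences of the groups did not overlap. Relative to CAVIN2 it changed by -0.62, with overlapping values. CAV1 alone did not overlap between the groups, as was the case for 23.9% of all tested genes. The share of all genes whose difference from CAV1 would not overlap was not computed.

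To compare genes, CPM were divided by the joined length of all annotated exons, which need not be the length of the transcripts expressed. CAV2 was given 6926 bases from a gene starting at 116287380, whereas its RefSeq start sites are 116499738 and 116500046. Per kilobase of exon so defined, the parental order of mean levels was PACSIN2 at 34.0, CAVIN2 at 11.6, CAVIN1 at 9.72, CAV1 at 7.81, CAV2 at 3.06 and EHD2 at 2.20 CPM per kb. The SDs were 6.32, 2.67, 1.72, 2.74, 0.740 and 0.557 CPM per kb (n = 4). PACSIN2 stood clear of all others in every parental library, and CAVIN2 was above CAV1 in all 4. The ranges of CAVIN2 and CAVIN1 overlapped, as did those of CAVIN1 and CAV1 and those of CAV2 and EHD2. In the restored-labelled libraries the order was PACSIN2 at 29.5, CAVIN1 at 20.2, CAVIN2 at 2.96, EHD2 at 1.59, CAV1 at 1.06 and CAV2 at 0.904 CPM per kb, with SDs of 3.93, 5.58, 2.88, 0.756, 0.712 and 0.218 (n = 4). PACSIN2 and CAVIN1 lay above the remaining 4 in every library. The ranges of neighbours in the order of those 4 overlapped, although EHD2 was above CAV1 in all 4 restored-labelled libraries.

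The make-up of the coat transcripts followed from these levels and is given as a description. Caveolin transcripts (CAV1 plus CAV2) summed to 10.9 CPM per kb ± 3.43 in the parental and 1.97 CPM per kb ± 0.926 in the restored-labelled libraries (SD, n = 4 each). Cavin transcripts (CAVIN1 plus CAVIN2) summed to 21.4 CPM per kb ± 2.16 and 23.1 CPM per kb ± 8.32, which differed by less than the spread, but their mix was different. CAVIN1 made up 59.0%, 43.9%, 44.2% and 36.1% of this sum in parental replicates 1 to 4 and 79.5%, 93.9%, 92.0% and 89.7% in restored-labelled replicates 1 to 4. The ratio of CAVIN1 to CAV1 lay between 0.825 and 2.95 in the parental and between 13.3 and 29.7 in the restored-labelled libraries. The ratio of CAV1 to CAV2 lay between 1.86 and 3.07 in the parental libraries and between 0.745 and 1.74 in the restored-labelled ones.

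**Figure D3:**
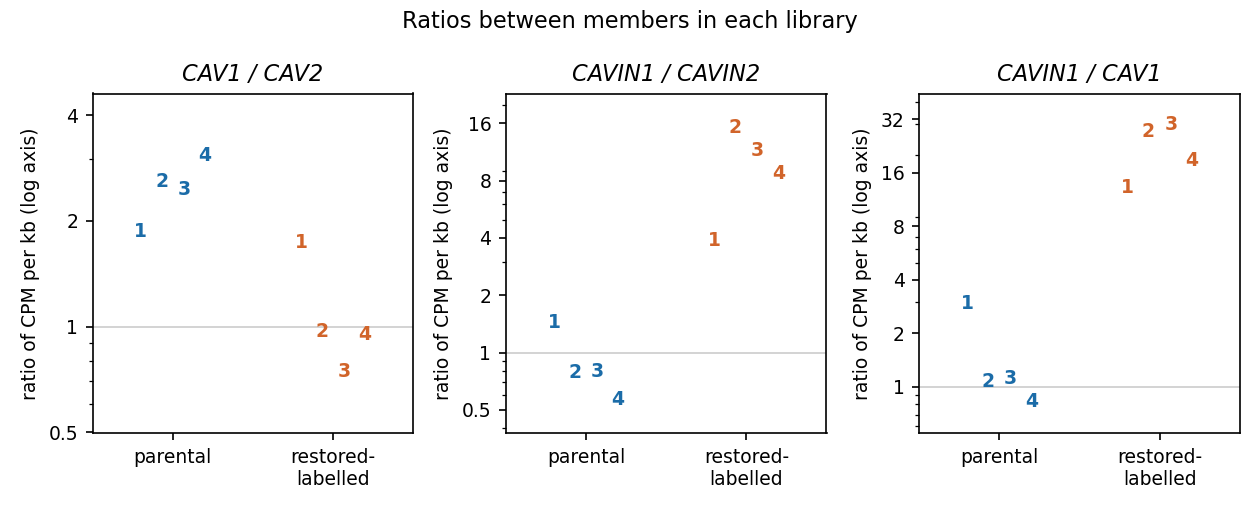
Ratios of CPM per kb between members in each library, on a log axis. Digits are replicate numbers, and the grey line marks equal CPM per kb, which depends on the exon lengths used. Parental replicate 1 and restored-labelled replicate 1 lie nearest to the other group in each panel, and no ratio overlaps between the groups. The members forming these ratios did not overlap between the groups either.

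Promoter windows from RefSeq (GRCh38.p14, 250 bases before to 50 after a start site) were found for 6 of the 8 members, 14 windows in all. They were searched on both strands for NNCAAAG with A or T at both N, the site bound by the Wnt effectors TCF and LEF, and no other motif was searched. CAVIN2 held 1 match, AACAAAG, starting 138 bases before the start site, and 1 of the 6 PACSIN2 windows held 1 match, starting 149 bases before. Both matches lie before a RefSeq start site but inside the gene as annotated above, which for CAVIN2 reaches 191847255. No window of CAV1, CAV2, CAV3 or EHD2 held these letters, and 13.8% of all 35116 windows of this length did. The CAVIN2 and PACSIN2 matches are shown with 10 flanking bases on each side, the match in capitals.
CAVIN2, chr2:191847210-191847236, minus strand: ctaaacctgcAACAAAGtgtcctgtgc
PACSIN2, chr22:42947174-42947200, minus strand: ttctgacctgAACAAAGggcagcctcc

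The first-listed windows of the falling genes were unlike in base composition, with 62.3% G and C and 19 CpG pairs for CAV1, 82.7% and 43 for CAV2, and 49.3% and 5 for CAVIN2, beside medians of 58.3% and 14 over the 27305 genes with a window. To show the sequence itself, stretches of CAV1 and CAVIN2 windows that lie before the start site and in no annotated exon are given here. That of the first-listed CAV1 window has 26 bases, ends 224 bases before its start site and has 57.7% G and C. A longer one precedes the inner CAV1 start site, belongs to another window than the 62.3% above, ends 85 bases before that site and has 79.4% G and C. The CAVIN2 stretch ends 167 bases before its start site and has 43.4% G and C.
CAV1, first-listed window, chr7:116524759-116524784, plus strand: aataatctgcccaagcaccccagcgc
CAV1, inner start site, chr7:116526112-116526276, plus strand: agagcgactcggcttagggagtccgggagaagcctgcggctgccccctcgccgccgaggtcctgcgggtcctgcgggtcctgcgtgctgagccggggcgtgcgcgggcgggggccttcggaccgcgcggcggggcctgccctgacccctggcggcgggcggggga
CAVIN2, chr2:191847256-191847338, minus strand: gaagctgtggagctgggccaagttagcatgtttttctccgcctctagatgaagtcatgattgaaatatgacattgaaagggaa

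Since clones can differ by chromosome region, the tested genes within 1 Mb of the members were examined. Around CAV1 and CAV2, 6 other genes were tested, and the median of their log2 fold changes was -0.28. TES, encoding the focal adhesion protein testin, was lower (-0.66, edgeR adjusted p = 0.0148) and CFTR, the chloride channel, was higher (2.54, edgeR adjusted p = 0.0017). The genes MET, CAPZA2, ST7-AS1 and ST7 did not pass, with log2 fold changes of -0.32, -0.26, -0.30 and -0.18. CAV1 and CAV2 thus had more negative log2 fold changes than each of these neighbours.

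Around CAVIN1, 54 genes were tested, of which 17 were higher and 1 was lower at an edgeR adjusted p under 0.05, and their median log2 fold change was 0.34. The rise of CAVIN1, at 1.05, therefore came with higher values in its surroundings, whose part in the result was not tested. Around CAVIN2, 2 of 6 genes passed, both lower, where 8.77% of all tested genes were called lower. They were CAVIN2-AS1 and NABP1 (-1.25, edgeR adjusted p = 0.0295), the latter named after its value was seen. The 49 tested neighbours of EHD2 had a median of 0.28 and the 27 of PACSIN2 one of -0.06.

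**Figure D4:**
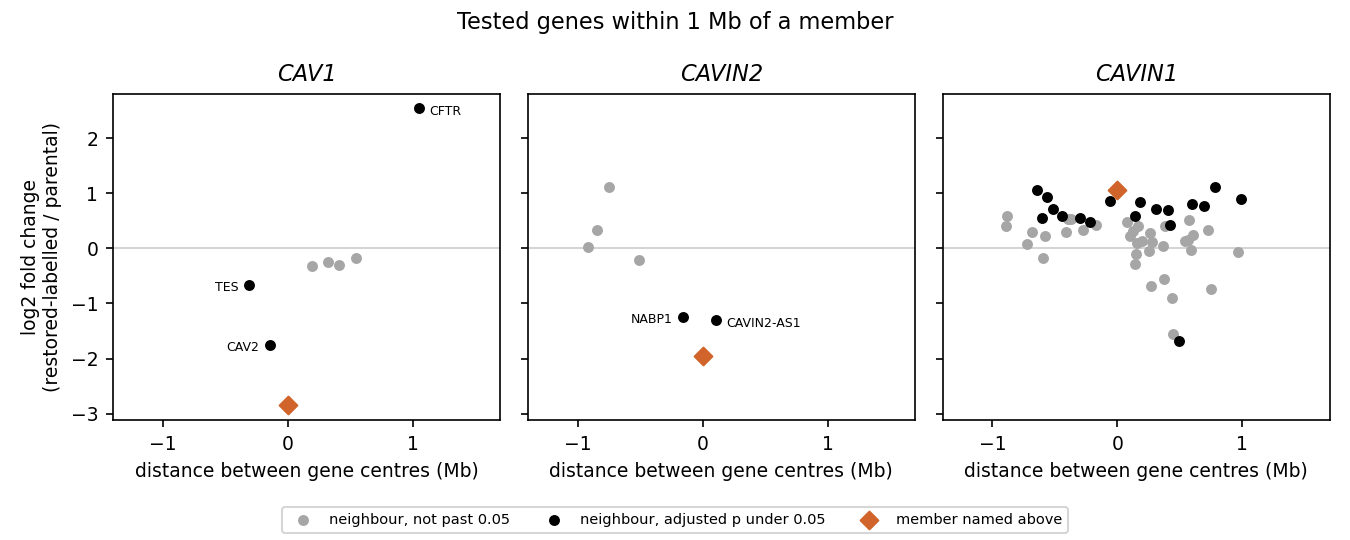
Log2 fold change, restored-labelled over parental, of tested genes within 1 Mb of CAV1, CAVIN2 and CAVIN1, against the distance between gene centres in Mb. Orange diamonds are the member named above each panel, black points have an adjusted p under 0.05. CAV1 and CAV2 lie below their neighbours, whereas 17 of the 54 points around CAVIN1 are black and lie above 0, beside 10.4% of all tested genes.

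Other genes of caveola assembly and dynamics, together with the raft proteins flotillin and stomatin, formed a list of 18, of which 15 were tested. In edgeR 2 of them were called higher and 3 lower, which is 33.3% beside the 19.2% of all tested genes, and 10 did not pass. This list and the cholesterol and sphingolipid list below were chosen with earlier results of these data known. The count called in the present list fell to 3 without parental replicate 2 and to 2 without restored-labelled replicate 3 or 4. In these settings 10.5%, 10.7% and 9.71% of all tested genes passed. The median log2 fold change was -0.07, and 0.01 with scaling by total counts alone. PACSIN3, a relative of PACSIN2, fell from 76.0 to 43.5 CPM (log2 fold change -0.81, SE 0.15, edgeR adjusted p = 0.0047). FLNA, the actin crosslinker filamin A that links caveolae to stress fibres, rose from 296 to 569 CPM (0.94, SE 0.21, edgeR adjusted p = 0.0132). ROR1, a receptor that binds cavin 1, fell from 8.24 to 4.35 CPM (-0.91, SE 0.22, edgeR adjusted p = 0.0159).

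The other 2 changed genes of this list, named after their values were seen, were relatives of EHD2: EHD1 fell (log2 fold change -0.58, edgeR adjusted p = 0.0334) and EHD3 rose from a low level (0.98, edgeR adjusted p = 0.0394). The fourth EHD gene, EHD4, stood at 71.5 and 80.2 CPM and did not pass (edgeR adjusted p = 0.456). The flotillins FLOT1 and FLOT2, scaffolds of caveolin-free rafts, had log2 fold changes of -0.07 and -0.10 and did not pass either (edgeR adjusted p of 0.739 and 0.632). DNM2, the dynamin that cuts vesicles from the membrane, stood at 182 and 159 CPM (edgeR adjusted p = 0.249).

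Cholesterol and sphingolipids fill the caveolar membrane, and 17 genes of their synthesis, uptake and transport were all tested. In edgeR 3 of them were called higher and 0 lower, 17.6% beside 19.2% of all tested genes. At an unadjusted p under 0.05 there were 4 of the 17, beside 4786 of all 14289 tested genes. DESeq2's Wald test also called 3 higher and 0 lower, where it called 3504 of all 14289. The edgeR count was 2 without parental replicate 1, 2 or 3, where 3523 of 14612, 1508 of 14417 and 2061 of 14686 tested genes passed. It was also 2 without restored-labelled replicate 3 or 4, where 1531 and 1394 of 14361 tested genes passed. The median log2 fold change of the 17 was 0.22, but 0.07 without parental replicate 1 and 0.05 with both replicates numbered 1 left out. INSIG1, which retains the sterol sensor in the endoplasmic reticulum, rose from 46.2 to 77.4 CPM (log2 fold change 0.74, SE 0.12, edgeR adjusted p = 0.0020). HMGCS1, an early enzyme of cholesterol synthesis, rose from 48.2 to 104 CPM (1.11, SE 0.19, edgeR adjusted p = 0.0032), and SMPD1, acid sphingomyelinase, rose from 32.8 to 50.3 CPM (0.62, SE 0.19, edgeR adjusted p = 0.0427).

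Markers of cell types rich in caveolae were near 0, apart from a few genes. Among 5 endothelial markers, TEK had 0 counts in every library, KDR at most 2 and CDH5 at most 4, and the summed level of 4.58 to 6.77 CPM in the parental and 34.1 to 58.5 CPM in the restored-labelled libraries came almost wholly from PECAM1. PECAM1, an adhesion molecule that endothelium shares with blood cells, rose from 5.18 to 48.2 CPM (log2 fold change 3.22, edgeR adjusted p = 8.4e-06). Of 6 fibroblast markers, 3 had at most 3 counts in every library, and PDGFRB fell from 1.69 to 0.221 CPM (-2.87, edgeR adjusted p = 0.0045). COL1A1, the other fibroblast marker tested, averaged 1.11 and 1.87 CPM and did not pass (0.81, edgeR adjusted p = 0.308), and the 6 markers had sums of 2.71 to 3.22 and 1.18 to 4.41 CPM. The 4 muscle markers summed to at most 0.445 CPM in the parental and 0.933 CPM in the restored-labelled libraries, and the 3 adipocyte markers to at most 0.712 and 0.296 CPM, with ADIPOQ and FABP4 at 0 in all. The part of PECAM1-expressing or PDGFRB-expressing cells in the changes of the caveolar genes was not tested.

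The genes whose pattern over the 8 libraries was most like that of CAV1 were sought among the 10782 genes with a symbol and a mean of at least 5 CPM, by Pearson's correlation of log2 CPM. As the libraries fall into 2 groups, the values describe mainly the group difference, and the correlation of deviations from the group means is given beside them. For genes picked from the ends of the ranking, the deviations are no separate check, because they come from the same 8 libraries. CAV1 itself lay furthest from the rest of its group in parental replicate 1 (15.9 CPM) and in restored-labelled replicate 1 (8.64 CPM). The closest were JPT2 (r = 0.994, deviations 0.963), LARP4B (0.991, 0.941), PCOLCE2 (0.991, 0.949), DTX1 (0.990, 0.949) and NOL10 (0.990, 0.939). CAV2 followed at rank 6 (0.990, 0.938) and CAVIN2 at rank 46 (0.970, 0.916). EHD2 reached 0.631 (deviations 0.489) and PACSIN2 0.656 (deviations 0.769), and CAVIN1 -0.743 with deviations at 0.360. The most opposite patterns were those of TJP3 (-0.995, deviations -0.973), PBXIP1 (-0.994, -0.963), TTC1 (-0.993, -0.957), SLC23A1 (-0.992, -0.959) and CBR1 (-0.987, -0.952).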

How the data were processed

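Counts per gene of 8 mRNA libraries were taken from the table that the authors deposited, which holds raw whole-number counts without normalization. The submitters' processing notes name fastp 0.23.1, STAR 2.7.4, bcl2fastq and build GRCh38. The counting program, annotation and strand setting are not given in the sources used here. The 8 columns were matched to samples by their names in the labels. Symbols, coordinates and exon lengths come from GENCODE release 29 on GRCh38 and a table of symbols. The exon length of a gene joins all its annotated exons, with shared bases counted once.

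The main analysis used edgeR 4.0.16 under R 4.3.3, with filterByExpr (minimum count 10, minimum total 15), TMM factors and the two-sided quasi-likelihood test without covariates, with Benjamini-Hochberg adjustment over all tested genes. Standard errors were derived from the fold change and the F statistic. Log2 CPM used a prior count of 2. The same-label libraries differed by more than counting noise (chi-square per degree of freedom from 9.19). The test was checked on simulated counts. Alternatives used DESeq2 1.42.0, limma 3.58.1, other scalings and filters, a replicate block, thinning to 11232951 counts and each library left out. Leaving out both replicates numbered 1 was chosen after seeing the data.

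Members and lists were chosen with earlier results of these data known. Named genes are the members, AXIN1, the 3 genes of each list with the smallest p, the tested neighbours of CAV1 and CAV2, and the 5 genes most like and most unlike CAV1. Others were named after their values were seen. Single values of 2 genes of the cholesterol and sphingolipid list are not reported here.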

Additional observations from a re-analysis of the deposited data

Results flagged for a closer look

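Among the 12 sets of 4 values given by the 6 tested members in the 2 groups, 1 had a single library far from the rest. For CAVIN2 in the restored-labelled libraries, the gap between replicate 1 (23.5 CPM) and the next library (5.86 CPM) was 0.915 of the whole range of the group. Chance flags about 1 in 20 such sets.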

How the results depend on the processing

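CAV1, CAV2 and CAVIN1 kept their direction and their side of the threshold in all 18 alternatives run for each, and no member reversed. Log2 fold changes with 1 library left out ran from -3.45 to -2.64 for CAV1, -1.94 to -1.62 for CAV2, 0.85 to 1.16 for CAVIN1, -2.92 to -1.72 for CAVIN2, -0.85 to -0.28 for EHD2 and -0.32 to -0.10 for PACSIN2. CAVIN2 lost its call in 3 of 18 alternatives. With neither replicate 1, CAV2 was at -2.07, CAVIN1 at 0.94 and CAVIN2 at -3.05. EHD2 (-0.76) and PACSIN2 (-0.39) then passed, and 4623 of all tested genes did, in place of 2738. With 1 library left out, 1394 to 3523 genes, 3 to 5 members and 2 to 5 genes of the accessory list were called. CAV1 minus CAV2 then changed by -1.44 to -1.05 and CAV1 minus EHD2 by -2.81 to -2.11. Deviations of same-numbered libraries correlated at -0.06, 0.007, -0.03 and 0.23, and 1 of 4 parental libraries correlated best with its own number. The labels state no pairing, and so few libraries cannot decide whether replicate numbers pair them. With the replicate block CAV1 was at -2.99, CAVIN2 at -2.37 and 4 members were called, as in the fit without it, and 2033 genes passed. Without the filter on low counts CAV3 and CAVIN3 entered the fit at 1 count each and the members' median was -0.30 over 8 genes, in place of -1.11 over 6. The causes of these shifts were not tested.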

Other observations

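Restored-labelled replicate 1 held the highest value of its group in all 6 tested members, the falling genes as well as the rising one, whereas it was the highest of its group in 31.0% of all tested genes. It was also the deepest library, with 26400782 counts, and with all libraries thinned to equal totals the log2 fold changes of CAV1, CAVIN2 and CAVIN1 were -2.70, -1.98 and 1.06. Parental replicate 1 was the lowest of its group in 4 of the 6 members and the highest in the other 2, CAVIN1 and EHD2. Over all tested genes it was the lowest of its group in 38.6% and the highest in 37.9%.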
